A study of Homo sapiens with 31 samples.

Results

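A2780, an ovarian cancer cell line, carried 151 genes that were present in all of its libraries and near 0 in every library of the 3 other groups (A2780-only genes). It lacked 87 genes that were present in every library of those groups (A2780-absent genes). The members were chosen on FPKM, a count of fragments made comparable between genes by length and between libraries by size. An A2780-only gene has at least 5 FPKM in every A2780 library and under 0.5 FPKM in every other library, and an A2780-absent gene has the reverse. Together they are 238 of the 19221 genes of the table (1.24%), of which 0.786% were A2780-only and 0.453% A2780-absent. The levels of A2780 against the other groups were what chose the members, so these levels are described here and not tested.

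The A2780 group holds 8 libraries of the untreated parent line. A2780 OlaR (n = 8) is A2780 made resistant to olaparib, an inhibitor of the DNA repair enzymes PARP1 and PARP2, by culture in rising olaparib. C13* is a cisplatin-resistant line that the study used as ovarian cancer, while its discussion questions that use because of the line's origin. The C13* cells carried a lentiviral control shRNA (C13* shCON, n = 7) or an shRNA against CEBPB, the gene of the transcription factor C/EBPβ (C13* shCEBPB, n = 8). All groups are human cell lines, each selected or transduced population stands for its group, and the study's methods call the replicates biological without saying whether they came from separate cultures, so p-values measure the spread between these libraries.

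The libraries labelled A2780 OlaR lay with C13* shCON and not with their parent line. The correlation of log2(FPKM + 1) across genes between an OlaR and a shCON library had a median of 0.9941, against 0.8538 between an OlaR and an A2780 library and 0.8540 between a shCEBPB and an A2780 library. Between a shCEBPB and a shCON library it was 0.8879, and between a shCEBPB and an OlaR library 0.8874. In the table the columns are coded O (A2780), C (OlaR), CS (shCON) and R (shCEBPB), as the descriptions of the samples assign them. Whether the labels of these groups are right could not be settled from the table, so each comparison among OlaR, shCON and shCEBPB below is between libraries so labelled. No gene was at 5 FPKM or more in every OlaR library and under 0.5 in every shCON library, and 1 gene had the reverse. By the same thresholds 266 genes were present in A2780 and absent in OlaR, and 292 had the reverse. Counts that moved without the OlaR libraries are therefore also given without them, a setting added after the data were seen. Without them the rule chose 153 A2780-only and 90 A2780-absent genes, which hold all of the 151 and 87. The same rule applied to the other groups chose 76 shCEBPB-only and 34 shCEBPB-absent genes, 0 OlaR-only genes and 1 OlaR-absent gene, and no gene of either kind for shCON. One field of the labels of C13* shCON replicate 1 names A2780 as the cell line, against its title, and without that library the rule chose 152 and 87 genes.

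**Figure D1:**
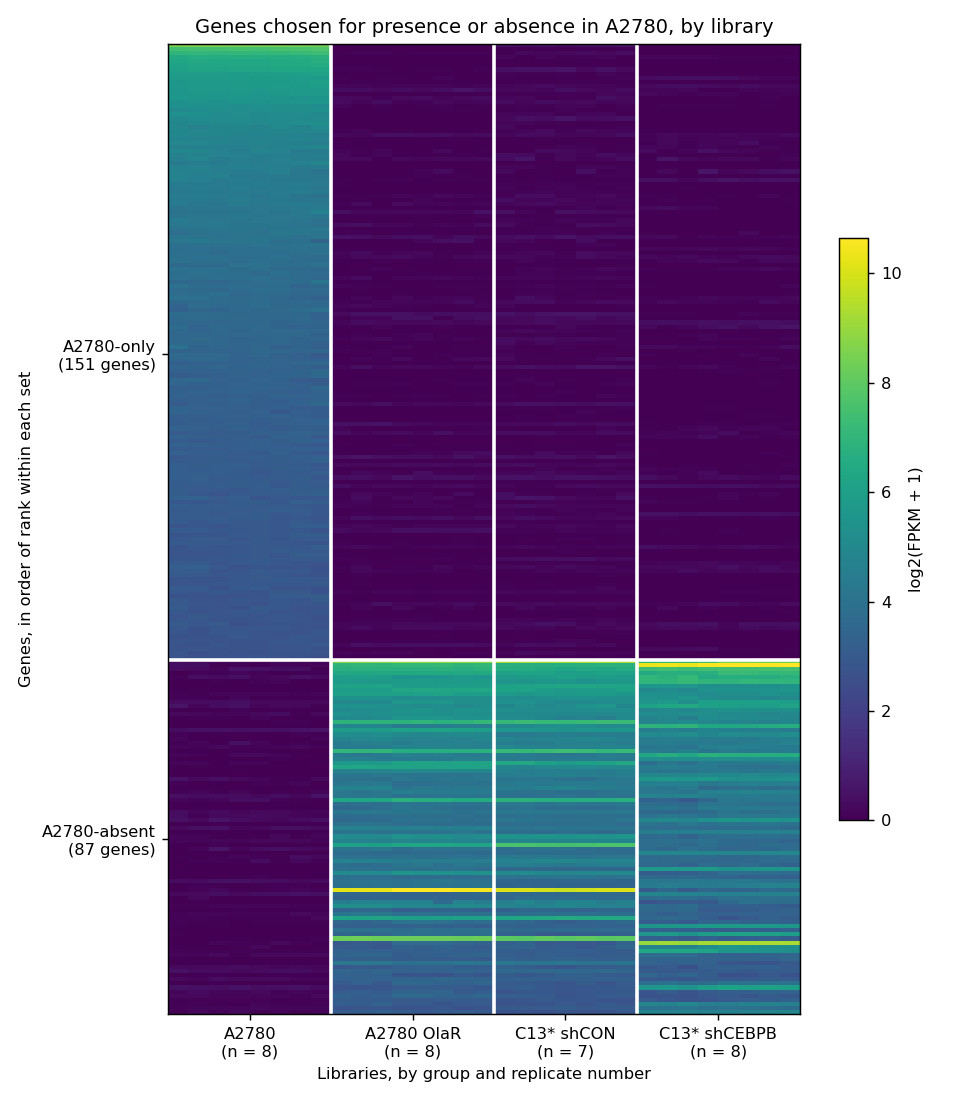
log2(FPKM + 1) of the 151 A2780-only and 87 A2780-absent genes (rows, by rank in each set) in the 31 libraries (columns, by group), with a shared colour scale. The A2780-only rows are near 0 in all 23 other libraries, and the A2780-absent rows differ most between C13* shCEBPB and the OlaR and shCON libraries.

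The labelled tissue was checked against its defining markers. Of the markers of ovarian carcinoma, PAX8, a transcription factor of the Müllerian duct, ran from 0.306 to 0.673 FPKM in A2780. WT1 reached at most 0.0869 FPKM, MUC16 (CA-125) 0.00135, WFDC2 (HE4) 0.0524 and ESR1, the estrogen receptor, 0.0153, and SOX17 was listed at 0 in every A2780 library. PAX2 and MSLN, of the same list, were present at 6.96 and 3.15 FPKM on average. In shCEBPB, PAX8, WT1, WFDC2 and ESR1 were low too, at 0.536, 0.0232, 0 and 0.0426 FPKM on average. SOX17, MUC16 and MSLN were highest in shCEBPB of all groups, at 1.833, 0.604 and 153.5 FPKM on average, while PAX2 was listed at 0. In OlaR and shCON, PAX8 had medians of 5.94 and 6.197 FPKM, WFDC2 of 40.16 and 40.24 and ESR1 of 2.238 and 2.419. MUC16 and SOX17 stayed low in these 2 groups, and WT1 averaged 0.615 and 0.819 FPKM. The epithelial markers CDH1 (E-cadherin) and EPCAM were at most at 0.0745 and 1.56 FPKM in A2780, while keratins KRT8 and KRT18 averaged 5.90 and 81.4. The squamous keratin KRT5 was listed at 0 in A2780, was at most at 0.0416 FPKM in shCEBPB, and had a median of 1870 FPKM in OlaR and 1573 in shCON. FPKM are relative to each library, and in bulk libraries fewer cells that express a gene cannot be told apart from less RNA per cell.

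Carcinoma cells are classed along an axis from epithelial, with keratins and tight junctions, to mesenchymal, with vimentin and fibrillar collagens. A gene can also be shut off in 1 line and open in another, and promoters rich in the dinucleotide CpG are the ones where DNA methylation is known to go with lasting silence. The 250 bases before the RefSeq start site of 4 A2780-only and 4 A2780-absent genes are given here, since they are the highest in rank with an entry and show how much CpG content varied within each set. CpG is in capitals and all other bases are in lower case. Sequences are 5′ to 3′ on the strand of the gene (GRCh38.p14). The A2780-only genes are HGF (chr7:81770048-81770297, minus strand), ZPLD1 (chr3:102434765-102435014, plus strand), SLIT2 (chr4:20251655-20251904, plus strand) and PTPRC (chr1:198638790-198639039, plus strand).
HGF: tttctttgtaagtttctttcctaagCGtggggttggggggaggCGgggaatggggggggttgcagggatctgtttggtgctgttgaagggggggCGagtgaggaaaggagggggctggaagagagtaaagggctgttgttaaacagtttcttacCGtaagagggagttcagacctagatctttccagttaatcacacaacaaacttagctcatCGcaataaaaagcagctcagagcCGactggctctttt
ZPLD1: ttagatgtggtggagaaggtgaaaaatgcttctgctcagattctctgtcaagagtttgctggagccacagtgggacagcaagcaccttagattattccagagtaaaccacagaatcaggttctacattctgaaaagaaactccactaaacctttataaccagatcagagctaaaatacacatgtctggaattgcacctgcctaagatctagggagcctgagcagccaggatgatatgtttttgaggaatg
SLIT2: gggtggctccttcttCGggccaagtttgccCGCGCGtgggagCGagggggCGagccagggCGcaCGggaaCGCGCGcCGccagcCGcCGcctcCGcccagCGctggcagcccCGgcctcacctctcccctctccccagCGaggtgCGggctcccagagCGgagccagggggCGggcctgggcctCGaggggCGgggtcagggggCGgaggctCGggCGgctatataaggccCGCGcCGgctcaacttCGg
PTPRC: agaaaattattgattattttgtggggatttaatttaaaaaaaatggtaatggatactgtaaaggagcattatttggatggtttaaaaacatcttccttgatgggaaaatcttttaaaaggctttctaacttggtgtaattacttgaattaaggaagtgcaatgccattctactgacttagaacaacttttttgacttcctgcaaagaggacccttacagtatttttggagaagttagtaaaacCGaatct

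The A2780-absent genes are ASS1 (chr9:130444457-130444706, plus strand), LGALS3 (chr14:55129002-55129251, plus strand), HTATIP2 (chr11:20363464-20363713, plus strand) and CD44 (chr11:35138921-35139170, plus strand).
ASS1: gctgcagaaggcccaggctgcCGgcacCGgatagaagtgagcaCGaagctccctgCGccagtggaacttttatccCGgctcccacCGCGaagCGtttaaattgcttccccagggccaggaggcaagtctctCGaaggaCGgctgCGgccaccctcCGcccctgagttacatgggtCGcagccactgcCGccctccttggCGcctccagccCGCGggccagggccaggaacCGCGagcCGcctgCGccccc
LGALS3: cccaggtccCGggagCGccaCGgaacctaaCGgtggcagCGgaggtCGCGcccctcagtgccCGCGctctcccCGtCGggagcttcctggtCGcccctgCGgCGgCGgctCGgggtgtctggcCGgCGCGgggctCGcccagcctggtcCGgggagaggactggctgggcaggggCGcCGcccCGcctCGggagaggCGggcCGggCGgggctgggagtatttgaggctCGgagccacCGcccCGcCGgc
HTATIP2: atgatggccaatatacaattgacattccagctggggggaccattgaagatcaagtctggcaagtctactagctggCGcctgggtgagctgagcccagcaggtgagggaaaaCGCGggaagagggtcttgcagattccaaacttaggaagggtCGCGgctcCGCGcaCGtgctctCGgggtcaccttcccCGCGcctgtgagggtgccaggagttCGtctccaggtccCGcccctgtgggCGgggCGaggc
CD44: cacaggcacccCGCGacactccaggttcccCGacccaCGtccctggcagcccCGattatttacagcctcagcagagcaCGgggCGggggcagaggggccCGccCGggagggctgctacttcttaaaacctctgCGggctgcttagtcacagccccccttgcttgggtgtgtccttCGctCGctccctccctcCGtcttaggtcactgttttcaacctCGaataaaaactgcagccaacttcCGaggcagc

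The A2780-only windows of HGF, ZPLD1, SLIT2 and PTPRC held 6, 0, 30 and 1 CpG. Those of ASS1, LGALS3, HTATIP2 and CD44 held 21, 32, 15 and 15. Over all members, read from hg38 at GENCODE 44 start sites, the median was 15 CpG in the 250 bases before an A2780-only gene and 22 before an A2780-absent gene, against 22 over the genes tested and 18 over all genes of the table. Fewer than 5 CpG were found before 21.2% of the A2780-only genes and 5.75% of the A2780-absent genes, against 5.6% of the genes tested and 18.3% of all genes. CG was the only motif searched, and it reads the same on both strands. Methylation was not measured in these libraries, and the part of CpG content in the levels was not tested.

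**Figure D2:**
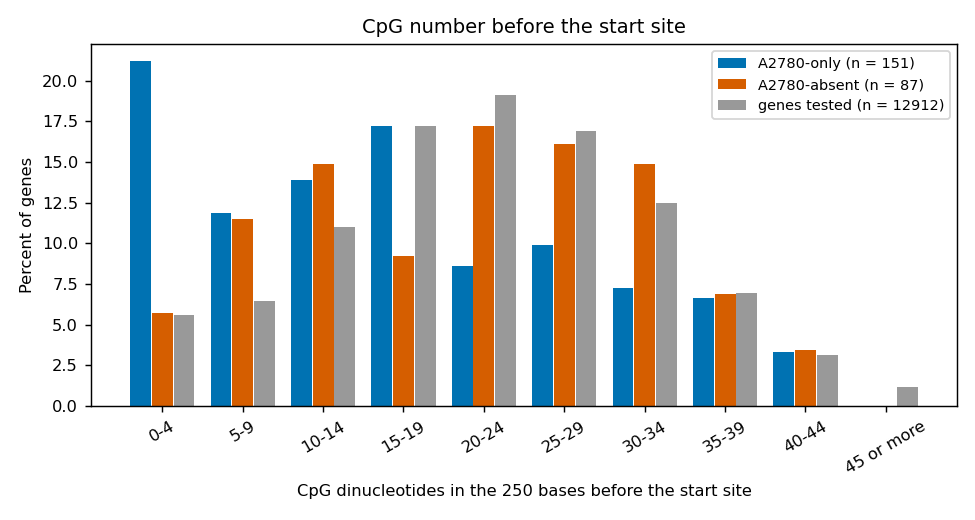
Percent of genes (y axis) by the number of CpG in the 250 bases before the start site (x axis) for the 151 A2780-only genes, the 87 A2780-absent genes and the genes tested that have a position. The lowest bin, 0 to 4 CpG, holds 21.2% of the A2780-only genes and 5.75% of the A2780-absent genes.

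A2780-only genes were led by secreted signals and matrix proteins. COL3A1, the chain of type III collagen, had 317, 364 and 373 FPKM as the lowest, median and highest of the 8 A2780 libraries, and 0.493 was its highest value elsewhere, in shCON. HGF, the ligand of the MET receptor, had 170, 184 and 208 FPKM in A2780 and at most 0.0159 elsewhere. SLIT2, a guidance ligand of ROBO receptors, had 90.8, 95.4 and 101 FPKM in A2780 and at most 0.136 elsewhere. APELA, a peptide ligand of the apelin receptor, had 70.8, 82.1 and 92.1 FPKM and was listed at 0 in all 23 other libraries. FGF5, a fibroblast growth factor, had 67.8, 73.7 and 78.8 FPKM, and reached 0.474 in shCON and 0 in shCEBPB. OLFM3, a secreted olfactomedin, had 55.6, 58.7 and 68.9 FPKM, with 0.154 as its highest value elsewhere. APELA was 1 of 3 A2780-only genes listed at 0 in every other library, with GCG, the glucagon precursor, and LUM, the matrix proteoglycan lumican.

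Receptors and surface proteins formed the next group. PTPRC, the leukocyte phosphatase CD45, had 75.7, 83.5 and 103 FPKM in A2780 and at most 0.0144 elsewhere. The other leukocyte markers stayed low in A2780: CD3E was listed at 0, LYZ and MS4A1 reached at most 0.0874 and 0.0171 FPKM, and CD14 ran from 0.0912 to 0.484 FPKM, a range that overlapped with its 0.195 to 0.473 in OlaR. Of the 16 blood and endothelial genes listed, 3 passed the filter on low values, PTPRC, CD68 and CDH5, and the last 2 were set apart lower in A2780 (1 without the OlaR libraries). Their summed level ran from 79.5 to 105 FPKM in A2780, 40.0 to 48.1 in OlaR, 63.7 to 71.4 in shCON and 13.2 to 17.7 in shCEBPB. The sum elsewhere was mostly CD68, a lysosomal protein, which had 41.9, 65.4 and 11.7 FPKM on average in OlaR, shCON and shCEBPB. GPR65, a proton-sensing receptor of lymphoid cells, had 48.1, 53.5 and 66.7 FPKM in A2780 and at most 0.0584 elsewhere. DDR2, a receptor tyrosine kinase for fibrillar collagen, had 52.3, 55.6 and 57.8 FPKM in A2780, and its highest value elsewhere was 0.369, in shCEBPB. ZPLD1, a zona pellucida domain protein, had 123, 131 and 159 FPKM in A2780 and at most 0.261 elsewhere. CLDN16, a claudin of the kidney tubule, had 48.8, 52.2 and 53.8 FPKM, and 0.469 in its highest other library, of OlaR. SLC38A4, a transporter of amino acids, had 39.2, 43.4 and 48.7 FPKM, and MUC15, a membrane mucin, had 28.7, 31.9 and 38.1.

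The remaining genes of the 25 highest included intracellular proteins. DLGAP1, a scaffold of the postsynaptic density, had 50.1, 54.3 and 59.2 FPKM in A2780 and at most 0.315 elsewhere. PDE4B, which degrades cyclic AMP, had 47.4, 48.9 and 53.6 FPKM and was listed at 0 in every OlaR library. MAGED1, an X-linked member of the MAGE family, had 31.7, 33.6 and 35.1 FPKM, reached 0.481 in shCON and was listed at 0 in OlaR and shCEBPB. ZSCAN18, a zinc finger protein, had 30.5, 35.3 and 40.5 FPKM and at most 0.143 elsewhere, but 2091 bases of its exons are shared with ZNF135 on the opposite strand, and no source used here says that strand was taken into account. GOLGA8M, at 35.1 to 40.2 FPKM, belongs to a family of near-identical copies among which reads can be split. The others were GFY, FAM26D, TRAPPC3L, IGFBPL1, NXPH3, TENM2 and SGCA, at medians of 25.9 to 47.0 FPKM in A2780, and none of them exceeded 0.344 FPKM elsewhere.

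**Figure D3:**
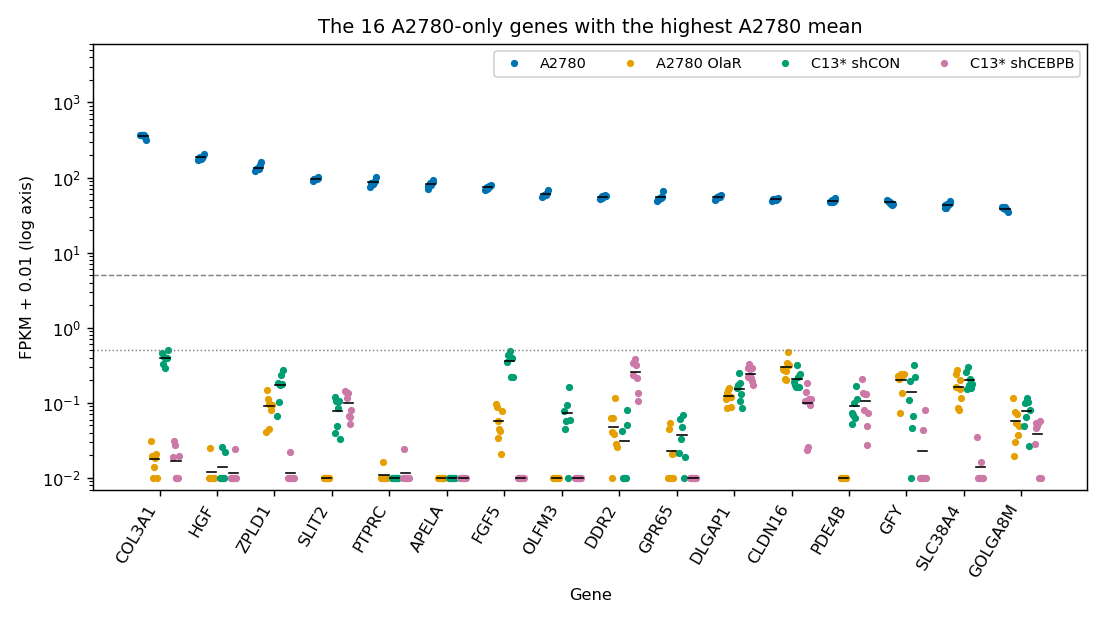
FPKM + 0.01 (log axis) of the 16 A2780-only genes with the highest A2780 mean in each library (points, coloured by group), with group means as black bars. The dashed line marks 5 FPKM and the dotted line 0.5 FPKM, and the A2780 points lie between 35.1 FPKM (GOLGA8M) and 373 FPKM (COL3A1).

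Below the 25 highest, members were picked for their known roles with their values in view. Transcription factors included GLI1, an effector and target of hedgehog signalling (12.2, 13.6 and 15.1 FPKM in A2780), HAND2 (7.96, 9.04 and 10.0), ALX4 (8.95, 10.6 and 11.2), TLX1 (5.46, 6.27 and 7.64) and PAX2, a factor of kidney and Müllerian duct (6.41, 6.99 and 7.58). PAX2 was at most at 0.0510 FPKM elsewhere and GLI1 at 0.283. LIN28B, an RNA-binding protein of early development, had 5.90, 6.46 and 7.90 FPKM and at most 0.0290 elsewhere. Of the matrix proteoglycans, the small DCN (decorin) and LUM had 8.08 to 11 FPKM and 5.38, 5.73 and 7.86, and the large VCAN (versican) had 7.24, 7.98 and 8.81. Receptor tyrosine kinases were FLT4, the receptor of lymphatic VEGF (7.59, 8.68 and 9.84 FPKM), EPHA5 (13.4, 14 and 14.5) and RET (5.90, 6.85 and 7.16). GFRA1 and GFRA3, co-receptors of RET, averaged 0.0237 and 0.0581 FPKM in A2780, and no other co-receptor of RET was looked at. Genes of neurons and synapses included NEFH, a neurofilament (19.3, 20.5 and 21.5 FPKM), KIF1A, a kinesin of axons (14.8, 17.5 and 19.5), SYT5 (14.9, 19.4 and 22.1) and NLGN1 (5.77, 6.78 and 7.88).

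The A2780-only genes as a whole had A2780 means of 5.55 to 358 FPKM with a median of 10.0. Only 12 exceeded 50 FPKM and 76 exceeded 10. The libraries of A2780 agreed closely, with a coefficient of variation of 1.56% to 19.1% (median 7.81%). Their A2780 libraries coded 1 to 3 all lay above those coded 4 to 8 in 14 genes and all below in 27.

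Of the members at the edge of the rule, SHISA8 entered with 0.4996 FPKM as its highest other library, COL3A1 with 0.493 and GBP2 with 5.11 as its lowest A2780 library. BCAT1 missed with 4.998 FPKM in its lowest A2780 library, DMRT2 with 0.505 in its highest other library and GATA4 with 4.85. For the A2780-absent genes, ELFN2, HORMAD1 and EVA1C entered with 5.04, 5.05 and 5.08 FPKM in their lowest other library. MNS1 missed with 0.511 FPKM in its highest A2780 library and MDFIC with 4.74 in its lowest other library.

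Ligands among the A2780-only genes were set beside their receptors, which were chosen after the values were seen. MET, the receptor of HGF, was lower in A2780, at 2.13 ± 0.140 FPKM (SD, n = 8), than in OlaR (44.6 ± 4.76, n = 8), shCON (51.7 ± 2.63, n = 7) and shCEBPB (37.8 ± 5.30, n = 8). The difference of A2780 from the mean of the 3 groups on the log2(FPKM + 1) scale was -3.85 (standard error 0.05, limma adjusted p = 5.46e-35). ROBO1, a receptor of SLIT2, was higher in A2780 (39.4 ± 0.804 FPKM, n = 8) than in OlaR (0.647), shCON (0.611) and shCEBPB (7.40), with a difference of 3.85 (standard error 0.05, limma adjusted p = 7.58e-35). FGFR1, which binds FGF5, was at 19.7 ± 1.26 FPKM in A2780 and at 3.15, 2.63 and 12.8 in OlaR, shCON and shCEBPB (difference 1.81, standard error 0.05, limma adjusted p = 3.80e-27). CD27, the receptor of the A2780-only gene CD70, was at 6.33 FPKM in A2780 and at 1.93, 2.01 and 0.0392 elsewhere. The receptors of APELA (APLNR) and of glucagon-like peptide (GLP1R) were listed at 0 in every A2780 library. PTCH1, a receptor and target of hedgehog signalling, followed GLI1, at 13.8 ± 0.318 FPKM in A2780 and 1.86, 1.66 and 3.32 in OlaR, shCON and shCEBPB (difference 2.21, standard error 0.04, limma adjusted p = 1.15e-31).

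The A2780-absent genes were led by keratin, metabolic and surface genes. KRT17, a keratin of basal and squamous epithelium, had 0.103, 0.200 and 0.262 FPKM as the lowest, median and highest A2780 library. It had 414, 462 and 496 FPKM in OlaR, 579, 611 and 654 in shCON and 135, 262 and 353 in shCEBPB. ASS1, which makes argininosuccinate on the way to arginine, had at most 0.328 FPKM in A2780, and had medians of 129, 103 and 1525 in OlaR, shCON and shCEBPB. The next enzyme of that pathway, ASL, which was chosen after its values were seen, was higher in A2780 (37.6 ± 4.56 FPKM, n = 8) than in the other groups (14.3, 13.1 and 21.7). LGALS3 (galectin-3) had at most 0.446 FPKM in A2780 and medians of 109, 88.9 and 169 in OlaR, shCON and shCEBPB. CD44, the hyaluronan receptor, had 0, 0 and 0.00969 FPKM in A2780, 56.4, 60 and 70.3 in OlaR, 67.5, 73.2 and 76.5 in shCON and 37.3, 40.7 and 47.9 in shCEBPB. CD44 was thus listed at 0 in most A2780 libraries and above 37 FPKM in each of the others.

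Metabolic enzymes and binding proteins among the A2780-absent genes are given next. CBR1, a carbonyl reductase, had at most 0.0539 FPKM in A2780 and medians of 75.9, 59.8 and 41.6 in OlaR, shCON and shCEBPB, while 464 bases of its exons are shared with an antisense gene. CYB5A (cytochrome b5) reached 0.0709 FPKM in A2780 and MGST2, a microsomal glutathione transferase, 0.140, against lowest values elsewhere of 27.5 and 18.6. FABP5, a fatty acid-binding protein, reached 0.0807 FPKM in A2780 and had medians of 118, 142 and 27.7 elsewhere. PYCR1, an enzyme of proline synthesis, reached 0.186 in A2780 and had medians of 20.4, 19.8 and 97.3. ALDH3A1, an aldehyde dehydrogenase, had at most 0.184 FPKM in A2780, and medians of 1481 and 1013 in OlaR and shCON but 10.2 in shCEBPB. GLUL, glutamine synthetase, was listed at 0 in every A2780 library, with medians of 12.2, 12.5 and 28.2 elsewhere. It was 1 of 8 such genes, with GDA, KCNK1, SNX19, ANXA8, LYPLAL1, HORMAD1 and RBP4. Of the housekeeping genes checked, ACTB was at 2180 FPKM or more in every library, and TBP, the lowest, at 7.94 or more.

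Epithelial and surface genes were the next group. TRIM29, a protein of squamous epithelium, had at most 0.110 FPKM in A2780 and medians of 86.4, 67.6 and 119 in OlaR, shCON and shCEBPB. OLR1, a receptor of oxidised lipoprotein, HTATIP2, TNS4, a tensin, WLS, which carries Wnt proteins to the surface, PPL, a plakin of desmosomes, ESRP2, an epithelial splicing factor, and CAV2, a caveolin, all had under 0.457 FPKM or exactly that in their highest A2780 library and at least 15.7 FPKM in every other library. CAV1, the partner of CAV2, which was not a member and was chosen after its values were seen, had 11.8 ± 1.39 FPKM in A2780 (n = 8) and 422, 471 and 33.3 in OlaR, shCON and shCEBPB. SLPI, a secreted protease inhibitor, reached 0.480 FPKM in A2780, the closest to the threshold of the 25 highest. The other named genes of this rank, CDCA7L, HR, FOXQ1, GDA, MEST, IAH1 and HENMT1, had at most 0.389 FPKM in A2780. CDCA7L shares 833 bases of its exons with DNAH11 and IAH1 1645 bases with ADAM17, both on the opposite strand.

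**Figure D4:**
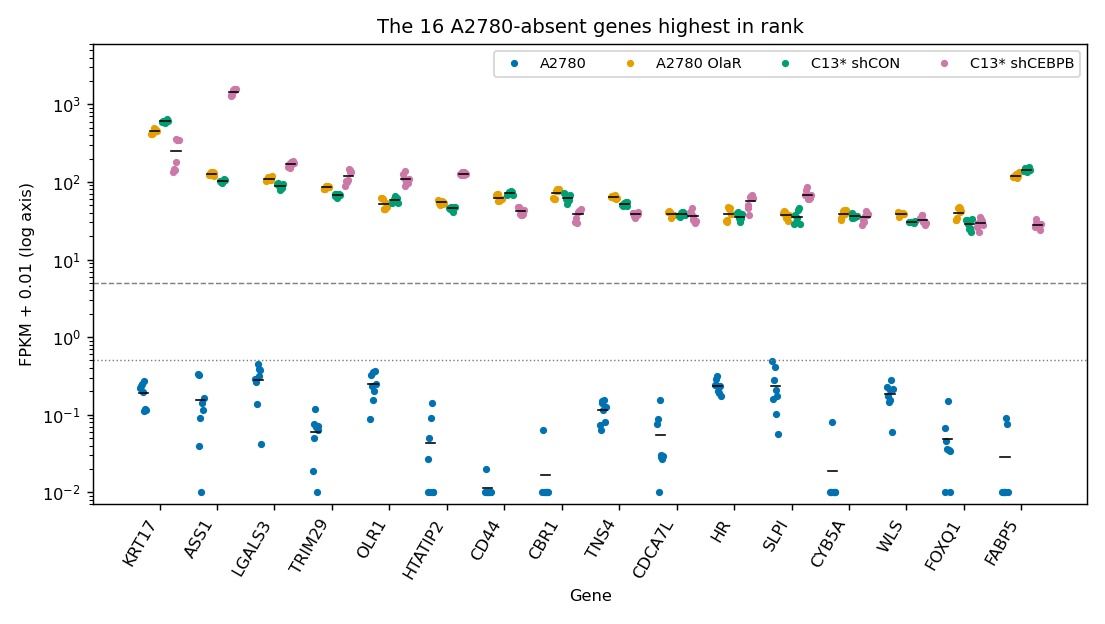
FPKM + 0.01 (log axis) of the 16 A2780-absent genes highest in rank, by the lowest mean among the 3 other groups, in each library (points, coloured by group), with group means as black bars. Every A2780 point lies below 0.5 FPKM (dotted line), and the shCEBPB points of KRT17 spread from 135 to 353 FPKM.

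A2780-absent genes below the 25 highest, and the partners set beside them, were also picked with their values in view. COL4A1, a chain of basement membrane collagen, had at most 0.0418 FPKM in A2780 and medians of 12.9, 8.38 and 58.7 elsewhere. COL4A2, whose start site lies 127 bases from that of COL4A1 on the opposite strand, averaged 0.0423 FPKM in A2780 and 8.11, 5.90 and 94.5 in OlaR, shCON and shCEBPB. Start sites within 1000 bases and on opposite strands were found for 5 A2780-absent genes. The partners ZNF860, PIH1D3, COL4A2 and C10orf25 were under 0.2 FPKM in every A2780 library, and ZNF860 and COL4A2 were at least at 1 FPKM in every other library. PIH1D3 and C10orf25 were low elsewhere too, at most at 0.139 and 0.513 FPKM. Of the 3 such partners of A2780-only genes, ZDHHC24, beside ACTN3, was on in all groups, and SATL1 and NLRP7 were near 0 in all of them.

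MB21D1 (cGAS), the sensor of cytosolic DNA, had 0, 0.0466 and 0.270 FPKM in A2780, and medians of 22.2, 26.8 and 11.6 in OlaR, shCON and shCEBPB. TMEM173 (STING), which acts after it and was chosen after its values were seen, had 0.184 ± 0.0711 FPKM in A2780 (n = 8), 16.3 ± 1.41 in OlaR, 12.6 ± 1.33 in shCON and 0.854 ± 0.340 in shCEBPB. PARP12, an antiviral PARP, had at most 0.0143 FPKM in A2780 and medians of 7.72, 8.69 and 9.57 elsewhere. Receptors included TNFRSF10A, a death receptor of TRAIL (at most 0.0272 FPKM in A2780, medians of 16, 21.4 and 11.4 elsewhere) and MST1R, the kinase RON (at most 0.175, medians of 35.3, 44.3 and 13). NR3C1, the glucocorticoid receptor, had 0.173, 0.284 and 0.444 FPKM in A2780, and medians of 16.2, 14.9 and 20.6 elsewhere.

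Levels of the 87 A2780-absent genes among the 3 other groups were not used by the rule beyond the minimum of 5 FPKM, and these were tested with limma on log2(FPKM + 1). Between shCEBPB and shCON, 77 of 87 (88.5%) had an adjusted p under 0.05, with 41 higher and 36 lower in shCEBPB, against 84.3% of the 12967 genes tested (38.0% higher and 46.4% lower) and 82.2% of the 6986 genes with at least 5 FPKM in all 23 of these libraries. With a fold change of at least 2 as well, 34 (39.1%) were called, against 27.6% of all genes tested and 14.7% of those at 5 FPKM or more. Between OlaR and shCON, 55 of 87 (63.2%) were called, with 35 higher and 20 lower in OlaR, against 37.7% (17.1% higher and 20.6% lower) and 38.4%, and 2 passed the fold change of 2, against 0.532% and 0.172%. Between shCEBPB and OlaR, 76 (87.4%) were called, 36 higher and 40 lower in shCEBPB, against 84.8% (39.2% higher and 45.6% lower) and 83.3%, and 35 (40.2%) also passed the fold change, against 27.3% and 14.7%. The 3 comparisons share their groups and are not independent of each other. The libraries coded 1 to 3 all lay above or all below those coded 4 to 8 in 50 of the 87 genes in OlaR, 40 in shCEBPB and 2 in shCON, and fits within each range called 53 and 60 for OlaR against shCON and 80 and 81 for shCEBPB against shCON.

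The largest differences between shCEBPB and shCON were in genes of several kinds on either side. KRT7, a keratin of simple epithelium, averaged 583 ± 56.1 FPKM (SD, n = 8) in shCEBPB and 8.02 ± 1.34 (n = 7) in shCON, a difference of 6.02 on the log2 scale (standard error 0.11, limma adjusted p = 1.63e-31). ASS1 was higher by 3.80, UNC13D, which primes secretory granules, by 2.87, FBN2 (fibrillin-2) by 2.74 and COL4A1 by 2.69. ALDH3A1 was lower in shCEBPB, at 9.94 ± 2.05 against 1019 ± 82.5 FPKM in shCON, a difference of -6.56 (standard error 0.09, limma adjusted p = 3.07e-34). FAM83A differed by -3.84, FGFBP1, which carries fibroblast growth factors, by -3.14 and TINAGL1, a matrix protein, by -2.92. Between OlaR and shCON the largest differences were smaller. TGFBI, a matrix protein, was higher in OlaR (72.3 ± 2.87 against 30.8 ± 2.69 FPKM, a difference of 1.21, standard error 0.07, limma adjusted p = 5.00e-15), and MEST, TIMP3, TNS3 and COL4A1 were higher by 0.58, 0.58, 0.57 and 0.52. FAM83A was lower in OlaR (71.4 ± 5.17 against 190 ± 5.65 FPKM, a difference of -1.40, standard error 0.05, limma adjusted p = 3.66e-21), followed by GDA (-0.51), KCNK1 (-0.44), TNFRSF10A (-0.42) and KRT17 (-0.42).

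All 238 members had a position in GENCODE 44. Of the A2780-only genes 14.6% lay on chromosome 19 and 9.27% on X, against 7.67% and 3.21% of the genes tested. Of the A2780-absent genes 11.5% lay on chromosome 17, against 6.18%. These chromosomes were named with the shares of all chromosomes in view, and shares over all genes of the table were not computed. Members of the same set that are next to each other among the genes of the table formed 15 runs with 32 members, and 1 run was of A2780-absent genes. How many runs an equal number of other genes would form was not computed. Neighbours that share a promoter region or a chromatin domain are not independent members. LUM and DCN lie together at chr12:91102629-91183217, FGF5 and C4orf22 at chr4:80266639-80963750, with 136 exonic bases in common, and NUDT11, GSPT2 and MAGED1 at chrX:51490011-51902354 (hg38). On chromosome 19, PTH2, GFY and SLC17A7 span 49422419 to 49442360, ZNF415 and ZNF347 span 53107879 to 53159075, ZNF773 and ZNF549 span 57499915 to 57557542 and ZSCAN18 and ZNF329 span 58083838 to 58155110. Other runs were OLFM3 with COL11A1, ANO3 with MUC15, ARHGDIG with PDIA2, CCDC8 with PNMAL1, CHODL with TMPRSS15, NPTX2 with TMEM130 and, among the A2780-absent genes, MAP3K21 with KCNK1. Exonic bases were shared with another gene by 49 A2780-only and 42 A2780-absent genes, so their levels are uncertain by what the shared bases hold.

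All genes tested, members included, were compared as a whole. With limma, 11762 of 12967 genes (90.7%) had an adjusted p under 0.05 between A2780 and the equal-weight mean of the 3 other groups, 6459 higher (49.8%) and 5303 lower (40.9%). Since a mean can be moved by 1 group, a gene is called set apart here if it was also above or below all 23 other libraries in every A2780 library. This held for 5862 genes (45.2%), 3556 higher (27.4%) and 2306 lower (17.8%), and without the OlaR libraries for 3776 higher and 2490 lower genes. The median difference over all genes tested was 0.11 on the log2 scale, and 0.005 with quantile normalization. The gene lists below are read against 27.4% higher and 17.8% lower, and no list was tested as a set. Genes that reached the filter of 1 FPKM in 7 libraries only on the side where they were high entered the test through that difference. They were 723 of the 3556 higher and 582 of the 2306 lower genes, and their number is given beside the lists they touched most.

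Epithelial genes were on the lower side. Of 24 epithelial junction and keratin genes 12 were set apart lower and 0 higher, with a median difference of -3.74. Of the 12, 8 passed the filter through the other libraries alone. KRT8 had 5.90 ± 0.396 FPKM (SD, n = 8) in A2780 and 483 ± 31, 459 ± 21.1 and 882 ± 91.6 in OlaR, shCON and shCEBPB (difference -6.40, standard error 0.04, limma adjusted p = 8.57e-44). KRT7, ST14 and ESRP2 of this list are A2780-absent genes, which the rule chose for this difference. EPCAM, KRT19 and GRHL2 were not set apart, since they were low in shCEBPB too, where EPCAM ran from 0.279 to 0.874 FPKM against 0.938 to 1.56 in A2780. The list's summed level ran from 96.6 to 105.5 FPKM in A2780 and from 1866 to 4263 in the other libraries. Of 21 squamous and basal genes tested 8 were set apart lower and 0 higher (13 lower with quantile normalization), of which 5 passed the filter through the other libraries alone and 2 are A2780-absent genes. SFN (stratifin), which is not a member, had 1.19 ± 0.487 FPKM in A2780 and 1027 ± 180, 1157 ± 101 and 129 ± 33.8 elsewhere (difference -7.95, standard error 0.12, limma adjusted p = 7.39e-34).

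Mesenchymal genes were mostly on the higher side, 13 of 24 higher (54.2%) and 3 lower, with a median difference of 2.30. Of the 13, 6 passed the filter through A2780 alone, and 3 of these (COL3A1, LUM and DCN) are A2780-only genes, which the rule chose for this difference. The 3 lower genes passed through the other libraries alone. VIM (vimentin) had 809 ± 13.8 FPKM (SD, n = 8) in A2780, 0.160 ± 0.0585 in OlaR, 9.82 ± 0.648 in shCON and 342 ± 10.7 in shCEBPB (difference 5.64, standard error 0.03, limma adjusted p = 2.57e-47). COL5A2, a fibrillar collagen chain, had 431 ± 6.47 FPKM in A2780 and at most 0.900 in every other library, and missed the rule for that reason. It is also 1 of the 6 that passed the filter through A2780 alone. Its difference of 8.22 is therefore given without a p-value. TAGLN (transgelin) differed by 6.83. The 3 genes set apart lower were SNAI2 (-2.89), FN1, fibronectin (-2.48), and LOX, lysyl oxidase (-1.41). SPARC, PDGFRA and CDH11 stayed under 0.5 FPKM in every library. The summed level was 2288 to 2466 FPKM in A2780, 1048 to 1279 in shCEBPB and 89.2 to 103 in OlaR and shCON.

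HOX genes, which set position along the body axis, were higher in A2780 in 24 of 37 tested (64.9%) and lower in 3, with a median difference of 1.82 (25 and 3 without OlaR). Of the 24, 7 passed the filter through A2780 alone. HOXB2 had 69.4 ± 3.20 FPKM in A2780 and 8.13 ± 0.749, 7.10 ± 0.781 and 0.119 ± 0.0559 in OlaR, shCON and shCEBPB (difference 4.02, standard error 0.04, limma adjusted p = 5.39e-38). HOXC6 and HOXB8 differed by 3.18 and 2.97, and HOXC11, HOXD9 and HOXC13 by -2.81, -1.55 and -0.79. The clustered protocadherins, cell adhesion genes of 3 neighbouring clusters, passed the filter in 6 of 53, of which 4 did so through A2780 alone, so no share is read from them. PCDHAC2 and PCDHB2, both of these 4, had 4.76 ± 0.515 and 4.14 ± 0.304 FPKM in A2780 and at most 0.267 and 0.279 elsewhere. Their exons overlap within each cluster, so reads could be split among them.

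Matrix metalloproteinases, which cut matrix proteins, were higher in A2780 in the MMP1, MMP3 and MMP10 group, whose genes are neighbours on chromosome 11. MMP10 had 823 ± 35.2 FPKM (SD, n = 8) in A2780, was listed at 0 in every OlaR and shCEBPB library and had 3.01 ± 0.323 (n = 7) in shCON. MMP1 had 542 ± 26.5 FPKM in A2780 and at most 1.35 elsewhere, and MMP3 84.5 ± 6.12 and at most 1.96. MMP10 and MMP3 differed by 9.02 and 5.97 (standard errors 0.03 and 0.05, limma adjusted p = 4.83e-52 and 1.11e-41). MMP1 differed by 8.72, but it passed the filter through A2780 alone, so no p-value is given for it. Of the whole list 6 of 18 were higher and 5 lower, of which 3 and 3 passed the filter on that side alone, and TIMP3, an A2780-absent inhibitor of these enzymes, was on the lower side with MMP28 (-3.56) and TIMP4 (-1.66).

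Of 22 neuronal genes 11 passed the filter, with 4 higher and 0 lower. SYP, 1 of the 4, passed through A2780 alone. MAP2, a microtubule protein of dendrites, was at 228 ± 9.61 FPKM in A2780 and 1.80, 1.05 and 0.0921 elsewhere (difference 6.96, standard error 0.04, limma adjusted p = 3.22e-45) and UCHL1 at 240 ± 5.42 (difference 5.58). The list's median difference was -0.06. CNTN1 and ELAVL2, which were not set apart, were near 0 in A2780 and shCEBPB and on in OlaR and shCON. Of 10 oncofetal and stem cell genes tested 6 were higher, among them the A2780-only gene LIN28B, and 0 lower, with NES (nestin) at 30.0 ± 2.03 FPKM in A2780 (difference 3.59) and HMGA2 at 36.7 ± 2.07 (1.74). Of 26 cancer-testis genes 4 passed the filter. PRAME had 63.9 ± 1.21 FPKM in A2780, 36.6 ± 1.77 in shCEBPB and at most 0.373 in OlaR and shCON, and MAGEA6, which passed through A2780 alone, had 2.01 ± 0.258 in A2780 and at most 0.993 elsewhere. Of 11 Müllerian and ovarian cancer genes tested 1 was higher, the A2780-only gene PAX2, and 2 lower, MSLN, mesothelin (-3.60), and MECOM (-2.15).

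NRF2 targets, which detoxify and supply NADPH, were lower in 9 of 26 (34.6%), 4 of which passed the filter through the other libraries alone, and higher in 2. Besides the A2780-absent genes ALDH3A1 and CBR1, ABCC3, a drug exporter, had 0.861 ± 0.129 FPKM in A2780 and 52.6 ± 4.07, 40.4 ± 1.81 and 12.4 ± 1.69 elsewhere (difference -4.05). ABCC3 is also 1 of the 4, so no p-value is given for it. HMOX1 (heme oxygenase) and TXNRD1 were higher by 1.58 and 0.87. Of 15 aldehyde dehydrogenases 3 were higher and 4 lower. ALDH1A1, a marker of ovarian cancer stem cells, had 1059 ± 36.0 FPKM in A2780, 0.246 ± 0.0871 in OlaR, 1.95 ± 0.242 in shCON and was listed at 0 in shCEBPB (difference 9.43, standard error 0.04, limma adjusted p = 1.07e-50). ALDH3B1 and ALDH5A1 differed by -1.83 and -0.99, and ALDH6A1 and ALDH7A1 by 0.58 and 0.55.

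Homologous recombination genes, which repair double-strand breaks from a sister copy, were set apart in both directions, 8 of 35 higher (22.9%) and 11 lower (31.4%), and the median difference was -0.28. BRCA1 had 10.1 ± 0.761 FPKM in A2780 and 35.4 ± 4.61, 28.8 ± 2.46 and 15.8 ± 2.47 in OlaR, shCON and shCEBPB (difference -1.23, standard error 0.06, limma adjusted p = 1.12e-18). BRIP1 and MCPH1 were lower by -0.28 and -0.30 (limma adjusted p = 0.000198 and 4.68e-05) and their libraries overlapped with those of other groups. EME1, RAD54L and RMI2 differed by -1.82, -1.44 and -1.39, and MUS81, the nuclease partner of EME1, by 1.26. Among 19 genes of the PARP inhibitor response 3 were higher and 4 lower (5 lower without OlaR). PARP1, the drug's target, had 51.4 ± 1.34 FPKM in A2780 and 137 ± 5.19, 122 ± 2.76 and 142 ± 16.7 elsewhere (difference -1.36, standard error 0.04, limma adjusted p = 7.81e-26). XRCC1 and RNASEH2C differed by -1.28 and -1.39, and HPF1, PARP3 and CHD1L by 1.22, 1.01 and 0.66.

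The C/EBP family was on in all groups apart from CEBPE, which was at most at 0.150 FPKM. CEBPB ran from 85.6 to 111 FPKM in A2780, and 112 ± 11.6 (SD, n = 8), 85.8 ± 9.93 (n = 7) and 47.1 ± 9.05 (n = 8) in OlaR, shCON and shCEBPB. Its difference from the mean of the 3 groups was 0.38 (standard error 0.08, limma adjusted p = 2.55e-05), had an adjusted p of 0.0839 by the same limma test when the 23 other libraries were 1 group, and the A2780 libraries overlapped with those of OlaR and shCON. CEBPG and DDIT3 (CHOP) were set apart higher, at 73.1 ± 3.02 and 83.8 ± 3.43 FPKM in A2780 and at most 22.2 and 19.3 elsewhere (differences 2.05 and 2.63, limma adjusted p = 5.56e-30 and 6.34e-32). For CEBPD the limma adjusted p was 0.974, at 46.8 FPKM in A2780 and 46.4, 49.9 and 44.1 elsewhere. CEBPA differed by -0.12 (limma adjusted p = 0.337, and 0.00526 over the libraries coded 4 to 8 alone) and CEBPZ by -0.30 (limma adjusted p = 4.98e-06). Without the OlaR libraries 1 gene of the family was also set apart lower.

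Immune genes were divided. Of 18 MHC class I genes 5 were higher and 5 lower, with HLA-B at 403 ± 15.4 FPKM in A2780 and 165, 224 and 33.6 elsewhere (difference 1.89). HLA genes are near-identical and vary between people, so reads could be split or lost among them. PSMB8, a subunit of the immunoproteasome, had 0.355 ± 0.179 FPKM in A2780 and 72.3 ± 7.02, 69.2 ± 4.54 and 13.9 ± 1.14 elsewhere (difference -4.98). It passed the filter through the other libraries alone, so no p-value is given for it. Of 31 interferon-stimulated genes tested 4 were higher and 5 lower, with ISG15 (2.48), HERC6 and USP18 (1.75) on the higher side and IRF7 (-2.25), OAS3 (-1.82) and IRF1 (-1.68) on the lower. Of 22 p53 targets 3 were higher (SESN2, TNFRSF10B and MDM2, at 2.52, 1.24 and 1.22) and 2 lower (DDB2 and XPC, at -1.06 and -0.89). For the interferon-stimulated genes and the p53 targets both shares lay below the 27.4% and 17.8% of all genes tested. For the MHC class I genes they were 27.8% in each direction. Without the OlaR libraries the genes set apart higher numbered 5 for the interferon-stimulated genes, 4 for the p53 targets and 3 for the NRF2 targets.

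**Figure D5:**
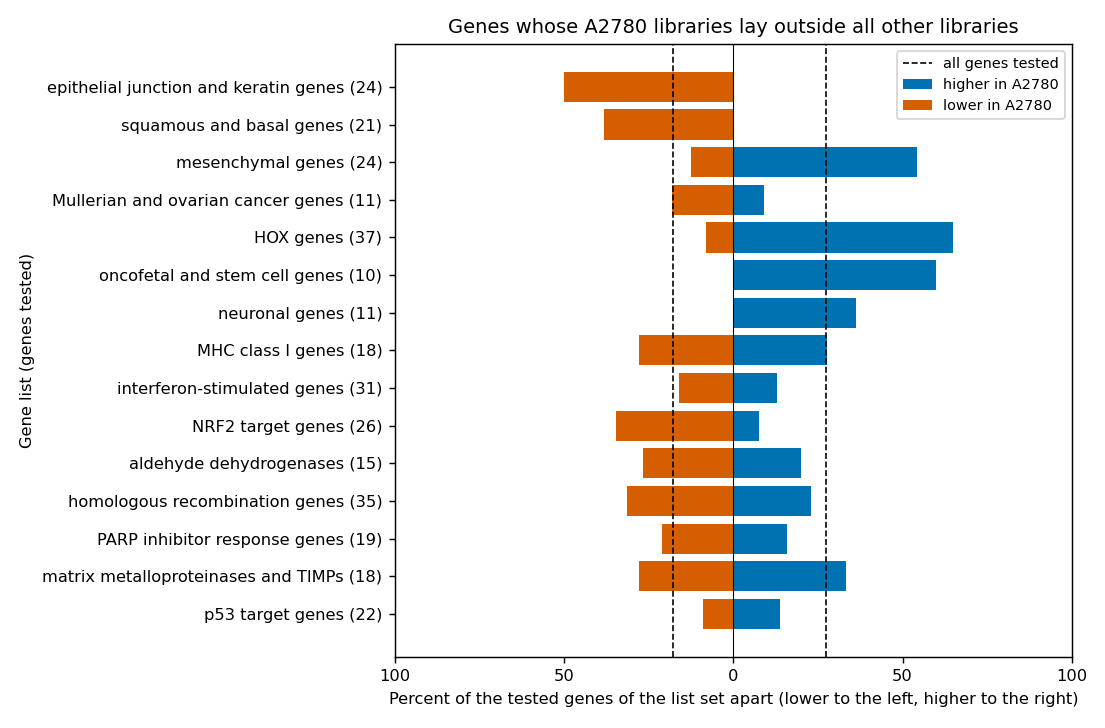
Percent of the tested genes of each list that were set apart lower (left) or higher (right) in A2780, with the number tested in brackets, for the 15 lists with at least 10 genes tested, members included. Dashed lines mark all genes tested (17.8% lower, 27.4% higher), and of the lists shown the HOX genes (64.9%) reach farthest to the right, the epithelial list to the left.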

How the data were processed

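RNA sequencing was carried out on 31 libraries of 4 groups. According to the study's methods, paired-end reads from an Illumina instrument were aligned to hg38 with TopHat and counted with HTSeq, and the authors tested counts with edgeR. The values analysed here are the FPKM per gene that the authors deposited in a single table. The annotation, the tool that made the FPKM and the use of strand are not given in the sources used here. FPKM are not counts, so no count test was run. The table held 19225 entries, from which 4 entries of 2 repeated symbols were left out. Relative depth, estimated from the smallest steps of low values, differed by at most 1.42 times between libraries, and FPKM summed to 417556 to 454578 per library. The study's methods give a minimum of sequence per sample, but not the total reads of each library.

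Groups were taken from the sample titles, and each column was matched to its sample by the code (O, C, CS or R with a number) in that sample's description. Genes with at least 1 FPKM in at least 7 libraries (12967) were fitted with limma (version 3.58.1, R 4.3.3) on log2(FPKM + 1) over all 4 groups, with a trend of variance on level and Benjamini-Hochberg adjustment over all genes tested. A fold change on this scale understates the change of low genes. A gene was called at an adjusted p under 0.05. In data simulated for the comparison of A2780 with the others, 200 of 200 changed genes among 12967 were called, and 4.31% of calls were false. The simulated libraries were independent of each other, and no other gene differed between groups, unlike in the data. These figures are therefore not error rates of the real comparison.

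Named genes were the 25 A2780-only genes with the highest A2780 mean, the 25 A2780-absent genes with the highest lowest group mean elsewhere, the 3 genes nearest each threshold on either side, the 3 genes set apart with the largest difference in each direction of each list, the C/EBP family, VIM, ALDH1A1, BRCA1, BRIP1 and MCPH1, the 5 largest differences in each direction among the A2780-absent genes and members adjacent on the genome. Genes outside this rule are said to be chosen with their values in view. The members and lists were chosen with earlier results of these data known. Some items are not reported here. Positions and the CpG counts over all members came from hg38 with GENCODE 44, and RefSeq promoter entries matched 113 of 151 A2780-only and 58 of 87 A2780-absent genes. Adjacent members are neighbours in start order among genes of the table. Alternatives were other scalings, pseudocounts, filters and thresholds, subsets of libraries and a replicate block.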

Additional observations from a re-analysis of the deposited data

Results flagged for a closer look

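In 14 of 396 sets of 1 gene in 1 group, the highest or lowest library lay apart from the rest by Dixon's criterion, which chance meets in about 1 of 20 sets. A2780 replicate 8 was the library in 7 of them, as the lowest for COL3A1 (316.6 FPKM, the others 349.7 to 372.7) and TNFRSF10B (86.41, the others 93.09 to 95.86). It was the highest for GPR65 (66.66, the others 48.1 to 55.8), HMGA2 (41.17, the others 34.82 to 37.74), MMP10 (899.8, the others 783.2 to 836.6), MMP1 (603, the others 516.1 to 547.5) and MMP3 (97.85, the others 78.51 to 87.51). A2780 replicate 7 was the lowest for UCHL1 (227.8, the others 237.6 to 245.1) and USP18 (21.73, the others 23.31 to 24.47) and the highest for ALDH7A1 (33.84, the others 31.26 to 32.44). In OlaR, replicate 4 was the highest for HOXB2 (9.731, the others 7.129 to 8.362) and replicate 6 for OAS3 (26.29, the others 23.43 to 24.77). In C13* shCON, replicate 4 was the lowest for HOXB8 (0.4818, the others 0.6397 to 0.7367) and replicate 1, whose cell line field names A2780, was the highest for UCHL1 (9.842, the others 7.189 to 8.333).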

How the results depend on the processing

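Asking for a fold change of at least 2 as well left 4211 of the genes called between A2780 and the others (2394 higher, 1817 lower) and 3506 set apart (2174 higher, 1332 lower), and among the A2780-absent genes 2 for OlaR against shCON, 34 for shCEBPB against shCON and 35 for shCEBPB against OlaR. With a pseudocount of 0.01, OlaR against shCON called 11. The rule at 10 against 0.1 FPKM chose 16 A2780-only and 19 A2780-absent genes, and at 2 against 1 FPKM 377 and 223. The other counts over all genes, over the A2780-absent genes and of the rule stayed within 1.5 times their value in the alternatives run. List genes set apart numbered 141 to 200 over all settings, while counts of single lists moved past 1.5 times in 26 cases and stayed within it in 582, and no direction reversed. The median of all genes was 0.112, and 0.164, 0.030 and 0.005 with a common sum, median-ratio factors and quantile normalization. With a replicate block, 11735 genes were called (6450 higher, 5285 lower), 3556 and 2306 were set apart, and 55, 77 and 78 A2780-absent genes were called for OlaR against shCON, shCEBPB against shCON and shCEBPB against OlaR. Same-numbered libraries of A2780 did not deviate together with those of OlaR or shCEBPB, at mean correlations of -0.228 and -0.239. Those of OlaR and shCEBPB did, at a mean of 0.476 (lowest 0.0856), against -0.0589 for different numbers. What the numbers stand for is not given by the labels. Calls for CEBPB (adjusted p = 0.0839 by limma with the 23 others as 1 group) and CEBPA (adjusted p = 0.0232 by limma after quantile normalization) changed. A fold change of at least 2 removed the calls of CEBPB, CEBPZ, HOXC13, TXNRD1, ALDH5A1, ALDH6A1, ALDH7A1, CHD1L, XPC, CDH5, BRIP1 and MCPH1. Without counts, the precision at low FPKM is unknown.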
